A study of Apis mellifera with 9 samples.

Results

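H3K27me3 domains of middle length that were present in honeybee (Apis mellifera) ovaries of each of 3 types, those of queens, of queen-less and of queen-right workers, are described here. They were chosen by length and presence. Peaks of the 6 deposited lists were merged where they shared at least 1 base, and a merged region was taken if it was at least 5000 and under 20000 bases long and held at least 1 base of a peak of each list. This gave 3254 mid-length domains of 53589 merged regions, or 6.07%. Of the 24847 merged regions held by all 6 lists, 13.1% were mid-length domains, 21285 were narrow regions under 5000 bases and 308 were very long domains of at least 20000 bases.

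H3K27me3, the trimethylation of lysine 27 on histone H3, is placed by Polycomb repressive complex 2 through its methyltransferase, and it is bound by Polycomb repressive complex 1. It is known for the stable repression of developmental genes, and in insects it often spreads over broad domains rather than single nucleosomes. In the honeybee, the queen lays the eggs, while most workers keep an inactive ovary that can become active once the queen is lost.

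The series asked how this mark is distributed in ovaries of the 2 castes and in worker ovaries that have become active. H3K27me3 was measured by chromatin immunoprecipitation and sequencing (ChIP-seq) of dissected ovaries, with 2 samples in each of 3 ovary types and 1 peak list per sample. Queen ovaries came from laying queens about 12 months old that headed colonies, and the labels give them no ovary score. Queen-less worker ovaries were taken 2 to 4 weeks after frames of brood and bees had been moved to a box without a queen, and they carry an ovary score of 3. Queen-right worker ovaries came from hives with a laying queen and carry an ovary score of 0. The age of the workers and the number of bees behind a sample were not given in the sources used here. The immunoprecipitation was repeated for each sample and its DNA combined into 1 library, so the spread between the 2 samples of a type is the only replicate spread. In the workers, the loss of the queen and the activation of the ovary cannot be told apart. Queens differ from workers in caste, and any difference in age cannot be told apart from it. The lists hold peaks and no expression values, so the labelled tissue could not be checked against marker genes.

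The lists were of similar length, with 48654 to 50922 peaks, and covered 22.2% to 35.4% of a scaffold span of 220.2 Mb. The sequencing depth is unknown, as the lists hold no read counts. Queen-less worker 2 stood apart by its coverage: it covered 35.4% of the span, against 22.2% to 29.4% in the other 5 lists. The median width of all its peaks, 612 bases, lay within the 496 to 652 bases of the other lists. Queen-right worker 1 stood apart by where it covered the domains, as given with the correlations. The differences between ovary types are therefore also given without single lists where these change a value. The peaks of queens 1 and 2 bear the names Q2 and Q3 in their lists, and the labels of the samples were used.

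The 3254 domains held 28.2 Mb, which was 12.8% of the span and 30.2% of all merged bases. Their lengths ran from 5003 to 19963 bases, with a median of 7410 and an interquartile range of 5908 to 10388. Of the 3309 merged regions of this length, 3254, or 98.3%, were held by all 6 lists, against 24847 of all 53589 merged regions. Length was measured on the merged peaks and presence asked for 1 base only, so a longer merged region meets the rule more easily. The share therefore says little of these domains in particular. Of the 55 that were not, 45 were missing from a single list, 29 were absent from queen-right worker 1, 20 from queen-less worker 1 and 14 from queen-right worker 2. Queen 1, queen 2 and queen-less worker 2 lacked 1, 4 and 0 of them. Absence from both queen-right samples with presence in the other 4 lists was seen for 6 regions, while no region was missing in this way from both queens or from both queen-less samples.

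The limits on length set the membership and are shown by the regions next to them. The shortest domain, at NW_003378147.1:280210-285212, had 5003 bases, and a merged region of 4999 bases at NW_003377900.1:167199-172197 fell just outside. The longest domain, at NW_003378023.1:169530-189492, had 19963 bases, and a merged region of 20000 bases at NW_003378092.1:1940227-1960226 was the first to be too long. The excluded region of 4999 bases was covered over 69.7% to 100% of its length in the 6 lists, and the excluded region of 20000 bases over 60.8% to 96.5%. Positions are counted from 1 on the scaffolds of the lists, whose genome build is not given in the sources used here.

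Between 33.5% and 35.9% of the covered bases of a list lay in the mid-length domains, a narrow range across lists that differed widely in coverage. The number of peaks that made up this share differed more. Queens 1 and 2 had 8664 and 10047 peaks in the domains, queen-less workers 1 and 2 had 9038 and 5072, and queen-right workers 1 and 2 had 7954 and 10952. The median width of these peaks was 1678 and 1224 bases in the queens, 1497 and 4758.5 bases in the queen-less workers and 1793 and 972 bases in the queen-right workers. Queen-less worker 2 thus had the fewest and widest peaks in the domains, and queen-right worker 2 the most and narrowest.

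The peak score, a value given by the peak caller to each peak, took no part in the choice of the domains. Ranked within its own list, the median score of a peak in the domains stood at percentile 63.6 and 60.7 in the queens, at 60.4 and 75.3 in the queen-less workers and at 59.6 and 51.8 in the queen-right workers. In narrow shared regions the medians were at percentile 58.4 and 55.0 in the queens, 55.9 and 67.1 in the queen-less workers and 59.6 and 55.5 in the queen-right workers. In very long domains they were at 72.1 and 67.6 in the queens, 64.7 and 84.9 in the queen-less workers and 59.6 and 47.9 in the queen-right workers. Peaks in the mid-length domains therefore ranked above those of narrow regions and below those of very long domains in both queens and both queen-less workers. The 3 length classes were level in queen-right worker 1. In queen-right worker 2 the mid-length domains ranked below narrow regions and above very long domains. These ranks are a description without a test.

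The covered share, the percentage of the bases of the domains that lay under a peak, differed widely between the samples of an ovary type. Over all domain bases it was 77.4% and 68.0% in queens 1 and 2, 74.2% and 92.6% in queen-less workers 1 and 2, and 76.9% and 59.7% in queen-right workers 1 and 2. Queen-less worker 2 was highest and queen-right worker 2 lowest, and the other 4 lists lay within 68.0% to 77.4%. The ranges of the 3 types overlapped.

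**Figure D1:**
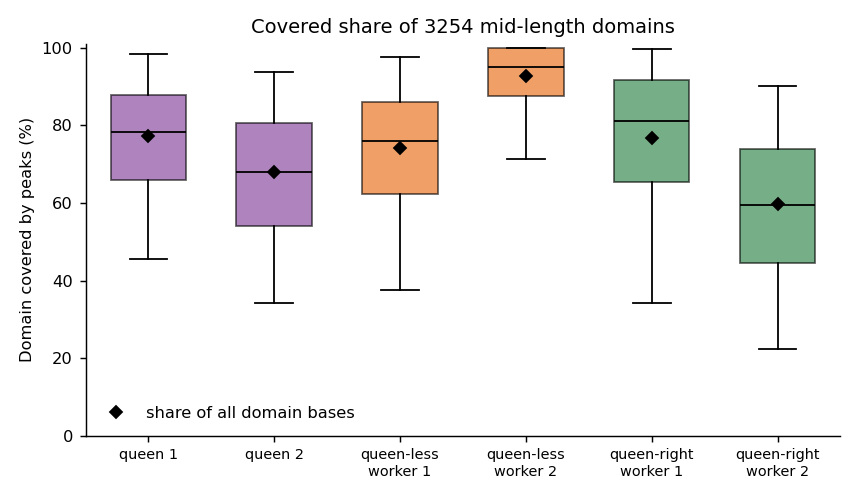
Share of each of the 3254 mid-length domains under peaks (%, y axis) in the 6 samples (x axis); boxes show the quartiles and the median, whiskers the 5th and 95th percentiles, and diamonds the share of all domain bases. Queen-less worker 2 has a median of 95.0% and queen-right worker 2 one of 59.4%, and the other 4 medians lie between 67.9% and 81.1%.

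By ovary type, the covered share averaged 72.7% ± 6.61 for the queens, 83.4% ± 13.1 for the queen-less and 68.3% ± 12.1 for the queen-right workers (SD, n = 2 each). The difference was 15.1 percentage points for queen-less minus queen-right workers, 4.43 for queens minus queen-right workers, and -10.7 for queens minus queen-less workers, beside a pooled replicate SD of 11.0. All 6 lists took part in choosing the domains, and a list with broad peaks lengthens the merged regions, so these differences are a description with no test. Without queen-less worker 2, queen-less minus queen-right workers was 6.11 points, and without queen-right worker 1 it was 25.0 points. Queens minus queen-right workers was 14.4 points without queen-right worker 1 and turned to -3.95 points without queen-right worker 2. Queens minus queen-less workers was -1.37 points without queen-less worker 2 and -20.0 points without queen-less worker 1.

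To read the covered share in lists that had no part in the choice, the domains were chosen again from 5 lists and read in the list left out, for each of the 6 in turn. The number of domains from the 5 other lists was 3189 and 3208 with queen 1 or 2 left out, 3146 and 2915 with queen-less worker 1 or 2 left out, and 3041 and 3220 with queen-right worker 1 or 2 left out. The left-out list held a peak in 99.3% to 100% of them. For narrow regions chosen in the same way this was 91.1% to 99.9%, and for very long domains 100%. Presence asked for 1 base only, and no rate for other stretches of this length was computed. Its covered share was 77.4% and 68.1% in the queens, 73.6% and 93.0% in the queen-less workers and 75.6% and 59.5% in the queen-right workers. Presence in the left-out list was thus high in each length class, and says little of these domains in particular. Their covered share in that list was nearly the one found when it had helped to choose them.

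In the left-out lists, mid-length domains were covered 46.7 ± 6.64 percentage points more than the scaffold span as a whole (SD, n = 6), with differences of 37.3 to 57.6 points that were positive in 6 of 6 samples. Against narrow regions chosen in the same way, which were covered over 52.2% to 84.4%, the domains were covered 9.89 ± 3.49 points more (5.44 to 15.0, higher in 6 of 6 samples). Against very long domains, which were covered over 73.5% to 98.3%, they were covered 11.6 points less (mean difference -11.6 ± 3.70, lower in 6 of 6 samples). For each of these 3 differences the exact two-sided sign permutation p was 0.03125, the smallest that 6 samples allow, and 0.03125 after Benjamini-Hochberg adjustment over the 3. Longer shared regions were therefore more fully covered in a list that had not chosen them, and the mid-length domains stood between the other length classes in each sample. These differences are in part set by the rule. The regions were held by 5 lists of the same mark, and shorter regions have more of their bases near an end, where merging lowers the share. The 6 sets of regions also come from largely the same lists, so the 6 differences are not independent. What lies beyond this was not tested.

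The ovary types were not separated by the left-out share. It averaged 72.7% ± 6.59 for the queens, 83.3% ± 13.7 for the queen-less and 67.5% ± 11.4 for the queen-right workers (SD; exact two-sided permutation p = 0.533 over the 3 types, n = 2 each, smallest possible p = 0.0667). The difference was 15.8 points for queen-less minus queen-right workers, 5.22 for queens minus queen-right workers, and -10.6 for queens minus queen-less workers, with an exact permutation p of 0.667 for each and a smallest possible p of 0.333. The pooled replicate SD was 11.0 points. A design of 2 samples per type cannot fall below 0.05, so these tests do not show that the types are alike. Without queen-less worker 2, queen-less minus queen-right workers was 6.63 points and queens minus queen-less workers -0.727 points. Without queen-less worker 1, queens minus queen-less workers was -20.3 points. Leaving out queen-right worker 1 gave 25.6 points for queen-less minus queen-right workers, with 15.0 for queens minus queen-right workers, while leaving out queen-right worker 2 turned this last difference to -2.31 points.

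Fragmentation was read as the number of peaks of a list in a domain, and was lowest in the list with the highest covered share and highest in the list with the lowest. A domain held on average 2.66 and 3.09 peaks in queens 1 and 2, 2.78 and 1.56 in queen-less workers 1 and 2, and 2.44 and 3.37 in queen-right workers 1 and 2. The most fragmented domain of a list had 10 peaks in each queen, 9 and 7 in the queen-less workers and 9 and 11 in the queen-right workers. Queen-less worker 2 was the only list in which most domains were 1 peak.

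The share of domains that were 1 peak was 18.1% and 10.7% in the queens, 16.1% and 59.3% in the queen-less workers and 26.9% and 8.30% in the queen-right workers. At the other end, 6 or more peaks were found in 2.74% and 6.30% of domains in the queens, 3.90% and 0.123% in the queen-less workers and 2.83% and 9.96% in the queen-right workers. Domains of 1 peak averaged 14.4% ± 5.24 for the queens, 37.7% ± 30.6 for the queen-less and 17.6% ± 13.1 for the queen-right workers (SD, n = 2 each). Beside a pooled replicate SD of 19.5 percentage points, queen-less minus queen-right workers differed by 20.1, queens minus queen-right workers by -3.21, and queens minus queen-less workers by -23.3. The high mean of the queen-less workers came from queen-less worker 2: with it left out and the domains chosen again, these differences were 1.72, -0.943 and -2.66 points. Without queen-less worker 1 they were 47.1, -2.70 and -49.8 points, and leaving out queen-right worker 1 gave 34.9, 7.09 and -27.8 points. Leaving out queen-right worker 2 gave 10.6 points for queen-less minus queen-right workers, with -13.2 points for queens minus queen-right workers. For queens minus queen-right workers, the difference was -7.15 points without queen 1 and 0.779 points without queen 2.

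**Figure D2:**
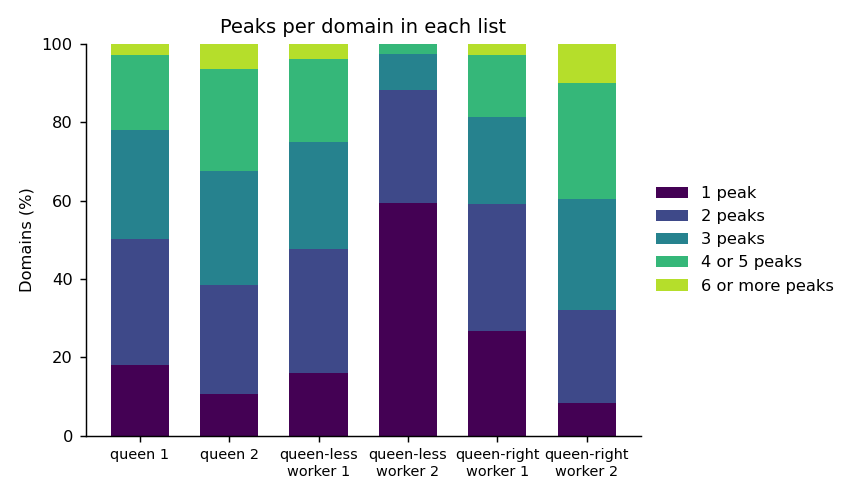
Share of the 3254 mid-length domains (%, y axis) that held 1, 2, 3, 4 or 5, or 6 or more peaks (colours) in each of the 6 samples (x axis). In queen-less worker 2, 59.3% of domains were 1 peak, against 8.30% to 26.9% in the other 5 lists.

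By type, a domain held 2.88 ± 0.301 peaks for the queens, 2.17 ± 0.862 for the queen-less and 2.91 ± 0.651 for the queen-right workers (SD, n = 2 each). The differences were -0.737 for queen-less minus queen-right workers, -0.0300 for queens minus queen-right workers, and 0.707 for queens minus queen-less workers, beside a pooled replicate SD of 0.647 peaks. In the left-out lists the same differences were -0.768, -0.0405 and 0.727 peaks, with exact permutation p of 0.667, 1 and 0.667 (n = 2 per type, smallest possible p = 0.333), and the 3 types gave an exact permutation p of 0.6. Without queen-less worker 1, queen-less minus queen-right workers was -1.40 peaks in the domains, and without queen-less worker 2 it was -0.246. Without queen-right worker 1 it was -1.27. Queens minus queen-less workers was 0.125 peaks without queen-less worker 2 and 1.35 peaks without queen-less worker 1. In the left-out lists this difference was 0.118 peaks without queen-less worker 2. The sign of the small difference between queens and queen-right workers changed with the peaks and samples used.

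Within a single domain the lists often disagreed on the covered share. The lowest share among the 6 lists had a median of 52.7% over the domains (interquartile range 37.6% to 66.9%), the highest a median of 98.6%, and the range between them a median of 41.4 percentage points. All 6 lists covered at least 50% of the domain in 1803 domains, or 55.4%, and at least 90% in 42 domains, or 1.29%. The presence rule asked for 1 base only, and 3180 domains, or 97.7%, were covered over at least 10% in all 6 lists. Single lists fell under 10% in 0 and 7 domains for the queens, 14 and 0 for the queen-less workers and 27 and 31 for the queen-right workers. Among the 21285 narrow shared regions they did so in 42 and 152 for the queens and 150 and 1 for the queen-less workers. For the queen-right workers these were 88 and 269. Such low shares were thus rare in narrow regions as well, and their rarity is not particular to the mid-length domains.

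The same lists tended to be the lowest and the highest from domain to domain. Queen-right worker 2 had the lowest share in 1692 domains (52.0%), queen 2 in 637, queen-less worker 1 in 496, queen-right worker 1 in 303, queen 1 in 125 and queen-less worker 2 in 1. Queen-less worker 2 had the highest share in 2251 domains (69.2%), and queen-right worker 1 followed with 590 (18.1%). Queen-right worker 1 was thus among the lists that covered a domain most fully as well as among those that fell under 10%.

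The number of lists in which a domain was 1 peak was low. No list showed 1 peak in 857 domains (26.3%), exactly 1 list did in 1351 (41.5%), and all 6 lists did in 67 (2.06%). Both queens showed 1 peak in 229 domains, both queen-less workers in 413 and both queen-right workers in 192. To be 1 peak in exactly 1 list was thus the most frequent case. A domain of 1 peak need not be covered whole. Domains of 1 peak with at least 90% covered made up 13.6% and 5.93% in the queens and 11.1% and 55.8% in the queen-less workers. In the queen-right workers they made up 20.7% and 3.81%.

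Base by base, 46.0% of the domain bases lay under peaks of all 6 lists, a total of 12973705 bases. A further 14.6% lay under 5 lists, 11.1% under 4, 9.24% under 3, 9.10% under 2 and 10.1% under a single list. Of the bases, 6.66% were missing from queen-right worker 2 alone and 5.22% were covered by queen-less worker 2 alone, while every other list missed alone at most 2.96% and covered alone at most 2.19%. A base under all 6 lists was found in 3243 domains, or 99.7%, and 11 domains had none although each list had a peak in them. The common bases were in a median of 3 stretches per domain, the longest of which had a median of 1844.5 bases. This longest stretch reached 1000 bases in 2514 domains (77.3%) and 5000 bases in 223, and the longest of all had 14208 bases.

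The covered share was lowest at the ends of the domains. Within 250 bases of an end it was 55.2% and 45.9% in the queens, 50.3% and 79.4% in the queen-less workers and 58.8% and 39.4% in the queen-right workers. At 2500 bases or more from both ends it was 81.5% and 72.6% in the queens, 78.4% and 94.9% in the queen-less workers and 79.4% and 63.5% in the queen-right workers. All 6 lists covered 22.4% of the bases near the ends and 51.1% of those deep inside. Low coverage at the ends is partly built in by merging, since the outermost base of a domain needs a peak of only 1 list. At each distance queen-less worker 2 was highest and queen-right worker 2 lowest.

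**Figure D3:**
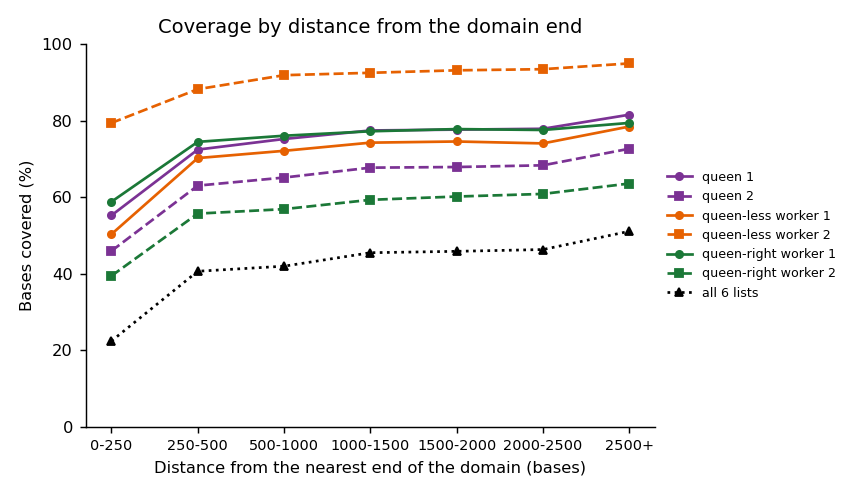
Share of domain bases under peaks (%, y axis) by distance from the nearest end of the domain (bases, x axis) in each of the 6 samples, and the share under all 6 lists (dotted line with triangles). In all 6 lists the share is lowest within 250 bases of an end, where all 6 lists together cover 22.4% of bases, against 51.1% at 2500 bases or more.

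The gaps between peaks of a list inside a domain were short and of similar length in all lists. The queens had 5410 and 6793 such gaps with medians of 747 and 816 bases, the queen-less workers 5784 and 1818 gaps with medians of 754.5 and 731 bases, and the queen-right workers 4700 and 7698 gaps with medians of 757 and 835 bases. No list has peaks closer to each other than 589 bases, so a shorter gap cannot appear. The lists therefore differed in how many gaps they had more than in how long a usual gap was. Gaps of at least 2000 bases made up 2.11% and 4.56% of gaps in the queens, 3.32% and 0.550% in the queen-less workers and 4.17% and 7.20% in the queen-right workers. The longest, of 14248 bases, was in queen-right worker 1. Gaps between peaks held 68.9% to 75.2% of the uncovered bases of a list, and the rest lay at the ends of the domains.

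Longer domains were more fully covered in all 6 lists. From the 879 domains under 6000 bases to the 256 domains of at least 15000 bases, the covered share was 72.0% and 83.0% in queen 1, 62.9% and 74.6% in queen 2, 69.2% and 80.3% in queen-less worker 1 and 89.4% and 95.7% in queen-less worker 2. For queen-right workers 1 and 2 the same pairs of values were 74.9% and 79.9%, and 56.7% and 65.9%. The median of the lowest share over the lists was 48.1% in the shortest of these classes and 64.6% in the longest. Peaks per kb were lower in the longer domains, at 0.393 and 0.222 in queen 1, 0.267 and 0.103 in queen-less worker 2 and, for queen-right worker 2, 0.443 and 0.335 in the same length classes. Longer domains were thus made of more peaks in total, but of fewer per kb.

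A few domains show the extremes. At NW_003377856.1:828323-839689, 11367 bases long, each of the 6 lists had 1 peak that covered 99.1% to 99.8% of the domain, the highest lowest share of all. The longest domain that was 1 peak in every list, NW_003378084.1:26434-38684, had 12251 bases and was covered over 97.1% and 92.8% in the queens, 99.2% and 94.0% in the queen-less workers and 92.3% and 98.9% in the queen-right workers. In both of these domains a single peak of each list spanned most of the length.

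Others were shared by the presence rule but had different shapes. The longest domain, on NW_003378023.1, had 4 and 6 peaks in the queens, 4 and 1 in the queen-less workers and 7 and 7 in the queen-right workers, with covered shares of 87.2% and 77.6%, 85.4% and 99.9%, and 76.4% and 66.5% in that order. The domain with the most peaks, NW_003378010.1:615963-633891, had 43 peaks over the 6 lists: 6 and 10 in the queens, 6 and 2 in the queen-less workers and 9 and 10 in the queen-right workers. Its covered shares were 72.9% and 42.1% in the queens, 63.6% and 95.0% in the queen-less workers and 44.2% and 20.0% in the queen-right workers, the lowest share going with 10 peaks. The shortest domain, on NW_003378147.1, was covered over 39.6% and 14.8% in the queens, 36.6% and 20.7% in the queen-less workers and 81.2% and 21.5% in the queen-right workers, so that queen-right worker 1 gave most of its length.

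**Figure D4:**
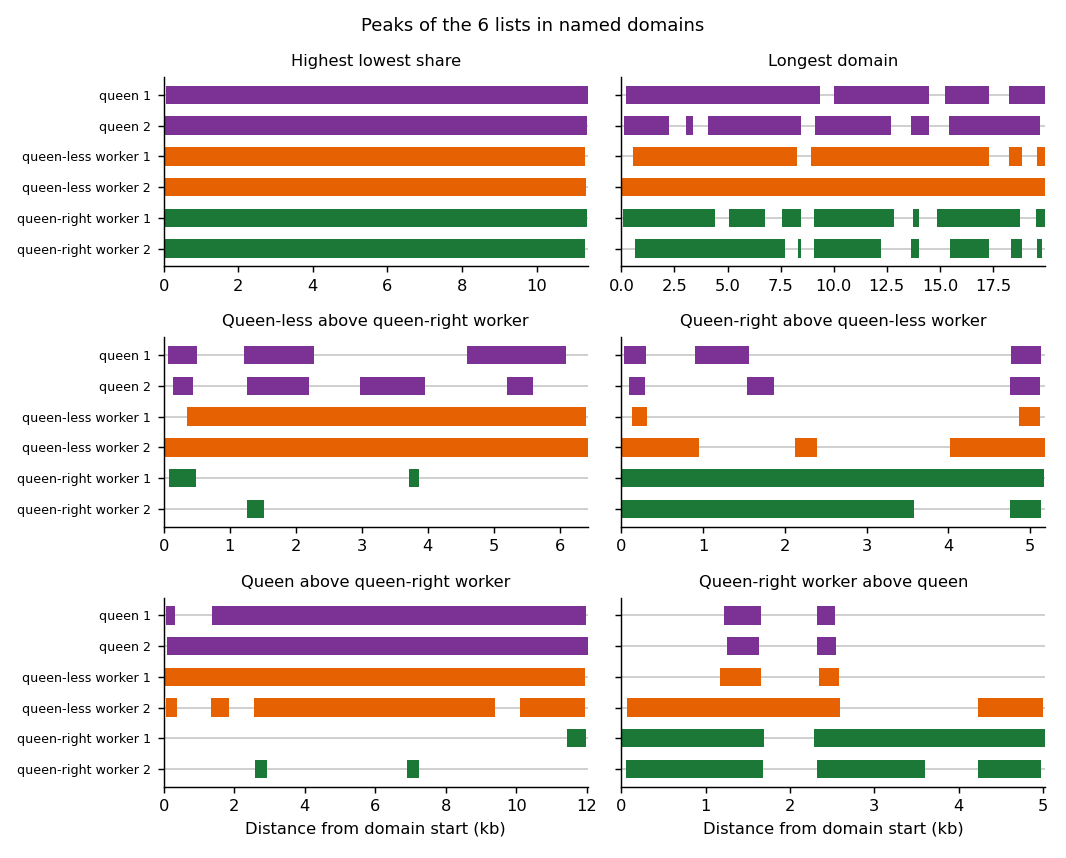
Peaks (bars) of the 6 samples (rows) in 6 named domains, against distance from the start of the domain (kb, x axis, a scale of its own in each panel). The domain with the highest lowest share is 1 peak in each list, the longest domain has 1 to 7 peaks per list, and the other 4 panels show the domains with the largest gap in covered share between ovary types.

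To ask where the ovary types differed, domains were counted in which both samples of one type had a covered share at least 20 percentage points above both samples of another. Queen-less workers stood above queen-right workers in this way in 422 domains, or 13.0%, against 8.42% of all 24847 shared regions. Queen-right workers stood above queen-less workers in 6 domains, or 0.184%, against 1.35% of all shared regions. In the 422 domains, the median covered share was 84.2% and 95.8% in the queen-less workers and 44.5% and 39.2% in the queen-right workers. The queens lay between them, with medians of 77.8% and 65.8%. Since the domains are part of the shared regions and were chosen with the same lists, these counts are a description with no test.

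Queens stood above queen-right workers in 204 domains, or 6.27%, against 4.41% of all shared regions. Queen-right workers stood above queens in 66 domains, or 2.03%, against 4.66%. The medians in the 204 domains were 85.1% and 77.9% in the queens and 32.2% and 36.9% in the queen-right workers. The queen-less workers had 80.9% and 96.7% there, so the low coverage was in the queen-right lists. In the 66 domains the medians were 44.1% and 39.9% in the queens and 93.6% and 77.7% in the queen-right workers. The queen-less workers were split there, at 39.5% and 81.9%. Both comparisons share the queen-right samples, so the domains with low queen-right coverage are not independent between them.

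Queens stood above queen-less workers in 0 domains, against 0.539% of all shared regions, and queen-less workers stood above queens in 109 domains, or 3.35%, against 5.97%. In the 109 domains the medians were 56.2% and 48.9% in the queens, 85.0% and 91.0% in the queen-less workers and 67.7% and 44.3% in the queen-right workers. In queen-less worker 2 the 5th percentile of the covered share over all mid-length domains was 71.3%, against 34.2% to 45.5% in the queens. The counts with 1 queen-less sample left out are given with the dependence on the processing, as the rule is then easier to meet.

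The counts were also taken on 2 other scales. When the median covered share of each list was first subtracted, 165 domains (5.07%) had higher coverage in queen-less workers, and 131 (4.03%) did in queen-right workers, against 3.4% and 6.73% of all shared regions. On this scale 154 domains (4.73%) were higher in queens and 144 (4.43%) in queen-right workers, against 3.24% and 6.1%. For queens and queen-less workers the counts were 8 (0.246%) higher in queens and 25 (0.768%) higher in queen-less workers, against 1.88% and 2.59%. This scaling was chosen after the counts were seen. It centres each list on these same domains, so it brings the counts of the 2 directions closer by construction and says nothing of the general coverage. With lists reduced to equal covered bases, the counts were 257 for queen-less above queen-right workers and 24 for the reverse, out of 2405 domains, or 10.7% and 0.998%. The share over all shared regions was not computed at this setting.

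The counts were also taken with single lists left out. This leaves 1 sample in a type, which makes the rule easier to meet for that type. Without queen-less worker 2, 430 of 2915 domains were higher in queen-less workers, and 184 were higher in queen-right workers. Without queen-less worker 1, 1073 of 3146 domains were higher in queen-less workers. Leaving out queen-right worker 1 gave 1200 of 3041 domains higher in queen-less workers and 710 higher in queens than in queen-right workers. Leaving out queen-right worker 2 gave 489 of 3220 domains higher in queen-less workers, 108 higher in queen-right than in queen-less workers and 482 higher in queen-right workers than in queens. For queens, 453 of 3208 domains were higher than in queen-right workers without queen 2, and 181 of 3189 were lower than in queen-right workers without queen 1. The share over all shared regions was not computed with a list left out, so these counts say nothing of the mid-length domains in particular. Whether the breadth of single lists accounts for the counts was not tested.

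The 422 domains with higher coverage in queen-less workers were spread over 103 scaffolds. The scaffolds with most of them were NW_003378123.1, with 27 among its 115 mid-length domains, and NW_003378039.1, with 22 among its 82. The share over all shared regions of these scaffolds was not computed, so no local concentration is read from these counts. The largest gap was at NW_003378039.1:404633-411057, a domain of 6425 bases with shares of 94.1% and 100% in the queen-less workers and 8.65% and 3.84% in the queen-right workers, 85.4 points apart. Each queen-less list had 1 peak over it, while the queen-right lists had 2 and 1 short peaks. The queens lay between at 46.6% and 40.6%, which made the same domain the one with the largest gap between queen-less workers and queens, at 47.5 points.

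In the opposite direction, NW_003378149.1:724325-729510 was covered over 8.43% and 45.5% in the queen-less workers and 99.4% and 76.3% in the queen-right workers, a gap of 30.8 points. The queens had 25.0% and 17.2% there. At NW_003378115.1:766899-778916, a domain of 12018 bases, the shares were 90.3% and 99.3% in the queens and 4.61% and 5.72% in the queen-right workers, a gap of 84.6 points. The queen-less workers had 99.4% and 79.3% at this domain, so the low coverage was in the queen-right lists.

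NW_003378170.1:565481-570508 was covered over 13.0% and 12.1% in the queens and 72.7% to 88.2% in the queen-right workers, 59.7 points apart. Between queens and queen-less workers the largest gap with queens above was 12.3 points, at NW_003378097.1:332421-339130, with 99.3% and 98.8% in the queens and 83.9% and 86.5% in the queen-less workers. The lowest share of any list and the largest range were found in the same domain, NW_003378111.1:1015300-1026714. It was covered over 99.0% and 79.5% in the queens, 91.4% and 99.4% in the queen-less workers and 1.87% and 27.8% in the queen-right workers.

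Across the 3254 domains, the covered shares of samples of the same type were related to different degrees. The Pearson correlation was 0.735 between the queens, 0.378 between the queen-less workers and 0.624 between the queen-right workers. Between types, queens and queen-less worker 1 gave 0.611 and 0.613, and queens and queen-less worker 2 gave 0.463 and 0.468. By this measure queen-less worker 1 was closer to the queens than to the other queen-less sample. With lists reduced to equal covered bases, its correlations were 0.580 and 0.615 with the queens and 0.420 with queen-less worker 2. Queen-less worker 2 had a median share of 95.0% and covered 626 domains whole, so its shares had little room to vary. Queen-right worker 1 had low correlations with the queens, at 0.162 and 0.238, and with the queen-less workers, at 0.0634 and 0.0633, while queen-right worker 2 had 0.402 and 0.541 with the queens and 0.290 and 0.259 with the queen-less workers. With lists reduced to equal covered bases, queen-less worker 2 had correlations of 0.445 and 0.490 with queen-right workers 1 and 2. Domains share the breadth of each list and neighbours lie close together, so these values are a description.

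On the scaffolds the domains were unevenly spread. They lay on 203 of 1834 scaffolds with a peak. Of these, 85 scaffolds with 10 or more domains held 2855 of them, while 44 scaffolds had 1. The 140 scaffolds with a span of at least 500 kb held 2966 domains, or 91.1%, on 76.9% of the span. Their density was 17.5 domains per Mb in all, with a median of 14.0 over scaffolds, an interquartile range of 4.06 to 23.4 and a range of 0 to 45.2. On 17 of these scaffolds the density was 30 per Mb or more, and there 770 domains made up 31.9% of a span of 22.0 Mb. On 27 scaffolds it was under 2 per Mb, and 14 domains made up 0.440% of a span of 19.2 Mb. A small part of the long scaffolds thus carried few or none of these domains.

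The scaffold with the most domains, NW_003378123.1, had 115 over 3.88 Mb, or 29.6 per Mb, which took up 30.1% of its span. The densest, NW_003378097.1, had 33 over 0.730 Mb, or 45.2 per Mb and 39.7% of its span. Of the 15 scaffolds of at least 500 kb that had no domain, NW_003377934.1 was the longest, with a span of 1.20 Mb. Over the 140 scaffolds, the density of mid-length domains had a Pearson correlation of 0.494 and a Spearman correlation of 0.677 with that of very long domains, and of -0.160 and -0.106 with that of narrow shared regions. This is a description.

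Neighbouring domains on a scaffold formed 3051 pairs with a median distance of 10299 bases (interquartile range 2327.5 to 30958, range 57 to 744392). The distances had 2 groups, one under 1000 bases and a wider one around 10000 bases. Of the pairs, 491 (16.1%) were closer than 1000 bases, 1064 (34.9%) closer than 5000, 1506 (49.4%) closer than 10000 and 92.0% closer than 100000. No other merged region lay between the neighbours in 714 pairs (23.4%). Among the pairs under 1000 bases, 414 were at least 589 bases apart, the shortest distance between peaks within a list, and 77 were closer. These neighbours were therefore mostly as far apart as peaks of a list inside a single domain, and joining peaks closer than 1000 bases before merging gave 3977 domains.

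**Figure D5:**
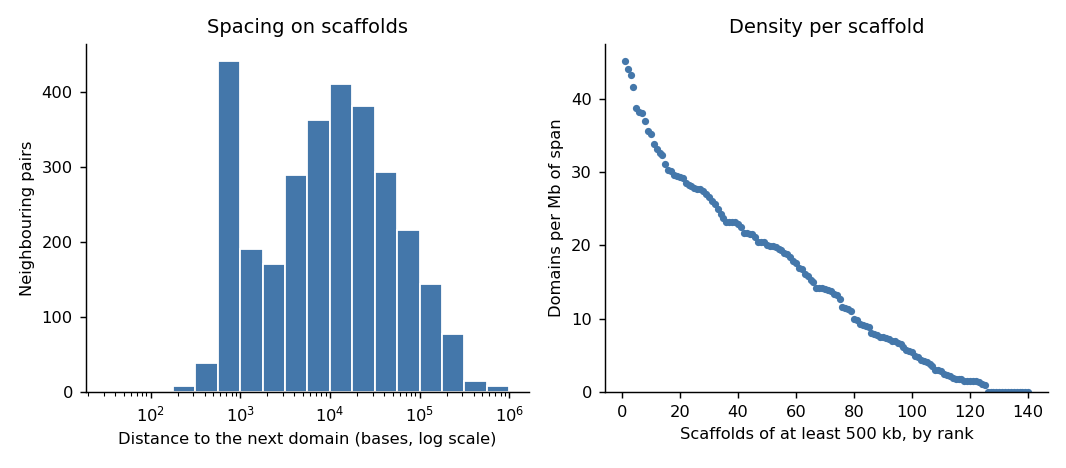
Left, number of neighbouring pairs of mid-length domains (y axis) by the distance between them (bases, log scale, x axis); right, domains per Mb (y axis) on the 140 scaffolds of at least 500 kb, ranked from the densest (x axis). The left panel has a peak just under 1000 bases, with 491 of 3051 pairs closer than 1000 bases, and the right panel runs from 45.2 to 0 domains per Mb.

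Other marked regions lay close to most of the domains. The nearest merged region of any kind was at a median of 681 bases from a mid-length domain, and 85.6% had one within 1000 bases. For narrow shared regions the median was 773 bases and the share 70.3%, and for very long domains 666 bases and 91.5%. Where the scaffold had one, the nearest other mid-length domain was at a median of 4395.5 bases from a mid-length domain, against 22265 bases from a narrow region and 1031 bases from a very long domain. A very long domain lay within 10000 bases of 368 mid-length domains, or 11.3% of them, against 1.55% of narrow regions. Among the 2356 mid-length domains and 8519 narrow regions that had a very long domain on their scaffold, the shares were 15.6% and 3.87%. Only 30 mid-length domains ended within 5000 bases of the end of a scaffold span.

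Where neighbours closer than 5000 bases were put together, 1696 domains (52.1%) lay in runs of 2 or more and 1558 stood alone. There were 386 runs of 2 and 246 runs of 3 or more, and these longer runs held 924 domains. The longest run, at NW_003378027.1:400749-599109, had 17 domains over 198361 bases, of which 175557 were domain bases. Its domains were covered over 83.0% and 74.7% in the queens, 83.2% and 97.0% in the queen-less workers and 88.8% and 74.1% in the queen-right workers. The same bases held 43 and 57 peaks in the queens, 41 and 21 in the queen-less workers and 37 and 56 in the queen-right workers. In the run as over all domains, queen 2 and queen-right worker 2 had the most peaks and queen-less worker 2 the fewest.

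The nearest 2 domains lay 57 bases apart on NW_003378074.1, at 784997-792274 and 792332-798442. The first was covered over 88.6% and 70.4% in the queens, 76.2% and 90.3% in the queen-less workers and 90.7% and 59.2% in the queen-right workers. The second had 62.2% and 58.9% in the queens, 97.2% and 80.3% in the queen-less workers and 62.8% and 53.3% in the queen-right workers. Adjacent domains could thus differ in which list covered them most.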

How the data were processed

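The H3K27me3 ChIP-seq peaks of 6 ovary samples were used, and the 3 input samples were not analysed here. Bowtie 1.0, SAMtools 1.5, MACS2 and bedtools are named in the submitters' processing notes, without versions for the last 2. The authors deposited 1 broad peak list per sample, called at a threshold of 0.1 with an extension of 147 bases. The deposited score of a peak, whose unit the lists do not name, was at least 10 in each list and served to rank or filter peaks of the same list. The genome build, and how the inputs entered the deposited peak calls, are not given in the sources used here. The study also computed fold enrichment over input with MACS2, which is not in these lists. Without read counts, depth is unknown and no counting interval can be given.

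Peaks were merged over the 6 lists and the domains taken by length and presence. Covered bases and peaks were counted per domain and sample. The scaffold span was taken to the farthest peak end. Samples were grouped by the labels. Since each list took part in the choice, tests used domains chosen from the other 5 lists and the share in the list left out, with exact two-sided permutation over samples, or of signs for differences within samples. The labels call the 2 samples of a type biological duplicates without naming colonies, so the p-values measure only the spread between these samples. The members, the rules and the tests were chosen with earlier results of these data known. Alternatives were a minimum score of 20, lists of equal covered bases (48.8 Mb) or of equal length (48654 peaks), joining of peaks closer than 1000 bases, lengths of 6000 to 15000 bases, at least 10% coverage in each list, a replicate block, and each sample left out in turn, which for the share of domains of 1 peak was added after the data were seen. The counting was tested on simulated data.

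Named regions were the longest and shortest domain and the regions next to the limits, the domains with the highest lowest share, the lowest share, the largest range and the most peaks, the longest that was 1 peak in each list, the largest gap in each direction of each comparison, the nearest pair, the longest run, and the scaffolds with most domains and most per Mb. The scaffold without a domain and those with most differing domains were named after their values were seen. A gene table of assembly Amel_HAv3.1 was given, but 0 of the chromosomes it names is among the scaffolds here, so genes and sequences were not analysed. Python 3.11.15 was used with SciPy 1.17.1, NumPy 2.4.6 and matplotlib 3.10.9.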

Additional observations from a re-analysis of the deposited data

How the results depend on the processing

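Over 22 results, 144 values were computed under other settings, of which 125 were called unchanged. Tests were called so if they kept their direction and side of the threshold, and differences if they moved within the replicate spread. Counts were called so if they stayed within a set ratio of the main count. For tests between ovary types the side was fixed in advance, as their p cannot fall below the threshold. Queens minus queen-right workers in left-out peaks per domain turned to 0.220 with a minimum score of 20, and with peaks closer than 1000 bases joined to 0.122. The number of domains was 2119 with lengths of 6000 to 15000 bases. Domains with higher coverage in queen-less than in queen-right workers were 257 at equal covered bases and 165 after each list's median share was subtracted, a scaling chosen after seeing the data. The reverse counted 24, 131 and, with peaks joined, 26. Queens above queen-right workers counted 122 at equal covered bases, of 2405 domains. Queen-right workers above queens counted 159 with peaks joined, of 3977 domains, and 144 after subtraction. Queens above queen-less workers counted 2, 1 and 8 at equal bases, joined and subtracted. Queen-less workers above queens counted 168 joined and 25 subtracted. At 6000 to 15000 bases, of fewer domains, queens above queen-right workers counted 132 (6.23%), the reverse 38 (1.79%) and queen-less workers above queens 67 (3.16%), shares close to the 6.27%, 2.03% and 3.35% of all lengths. Of these settings, the share over all shared regions was computed only after subtraction. The causes of the other changes were not tested.

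When 1 sample was left out, the number of domains ranged over 2915 to 3220. The counts of differing domains then rest on 1 sample in a type, which makes the rule easier to meet. The share over all shared regions was not computed for them. Queen-less above queen-right workers counted 411 to 1200 domains and the reverse 6 to 184. Queens above queen-right workers counted 191 to 710 and the reverse 61 to 482. Queens above queen-less workers counted 0 to 96 and the reverse 99 to 987. Queen-less minus queen-right workers in peaks per domain ranged over -1.40 to -0.246. For queens minus queen-right workers, the left-out share ranged over -2.31 to 15.0 points and the left-out peaks over -0.539 to 0.403. For queens minus queen-less workers they ranged over -20.3 to -0.727 points and 0.118 to 1.38 peaks. The left-out share of mid-length domains ranged over 47.3 to 50.8 points above the span, 9.40 to 11.1 above narrow regions and -11.6 to -10.4 against very long domains. With 5 samples the exact permutation p was 0.0625 for each of these 3, the smallest possible.

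The replicate numbers were not shown to pair the samples, as the deviations of same-numbered samples correlated at -0.140, 0.152 and -0.0624 over the 3 comparisons. A replicate block gives the same mean differences by arithmetic, 15.8, 5.22 and -10.6 points and -0.768, -0.0405 and 0.727 peaks. No call could change, as neither the blocked nor the unblocked test can fall below 0.05 here. Depth is unknown, so a deeper library cannot be told apart from broader marking. Peak lists give no signal height, and regions below the calling threshold are not seen. The length of a merged region depends on its broadest list.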
